A study of Mus musculus with 12 samples.

Results

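The Notch pathway was examined through 10 genes, chosen by symbol: the receptors Notch1, Notch2 and Notch3, the ligands Dll1, Dll3 and Jag1, and the genes listed as targets, Hes1, Hes5, Hes6 and Hey1. Whether Notch drives each gene listed as a target in these cells was not tested. All 10 were found among the 22609 genes of the count tables. Reads were counted in 12 RNAseq libraries of mouse adherent neural stem (ANS) cells, which derive from the E14.5 embryo, divide in growth medium and differentiate towards GABAergic neurons once the medium is changed. Proliferating cells in growth medium with 1% N2 supplement, 20 ng/ml FGF2 and 20 ng/ml EGF were the reference (T0, n = 3). At T1 (n = 3) cells had spent 2 days in medium D1, with 0.5% N2, 1% B27, FGF at 10 ng/ml and EGF lowered to 2 ng/ml. Cells of T2 and T3 first passed through medium D1, as the paper describes. At T2 (n = 4) they had spent 2 days in medium B, and at T3 (n = 2, replicates 1 and 4) 10 days in it. Medium B held 0.5% N2, 1% B27, 10 ng/ml FGF-2 and 20 ng/ml BDNF. Whether those days at T3 run from the change to medium B, as labelled, or from T2 is given differently in the sources, and the labels were followed. The FPKM column taken for T3 replicate 4 carries in its name a further 2 that no label explains. No mutation or transgene is named for any group, and the names of the FPKM columns begin with wt. All are cultures of cells called ANS, without a named clone.

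Notch receptors are activated by ligands of the Delta and Jagged families on a neighbouring cell. The activated receptor is cut by ADAM proteases and then by gamma-secretase. Its intracellular domain joins the DNA-binding protein RBPJ to switch on some genes of the Hes and Hey families. These encode repressors of proneural factors such as Neurog2, and in the embryonic brain the pathway is known for keeping progenitors undifferentiated, while Delta ligands are expressed by cells that begin to differentiate.

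The upstream sequences of Hes5, Dll1 and Dll3 are shown because these genes carry the largest changes called among the 10. Each is the 250 bases before a RefSeq transcript start on GRCm38.p6, printed 5′ to 3′ along the gene's own strand. In Hes5 (chr4:154960673-154960922, plus strand) the capitals mark the RBPJ core, TGGGAA or its reverse complement TTCCCA.
Hes5: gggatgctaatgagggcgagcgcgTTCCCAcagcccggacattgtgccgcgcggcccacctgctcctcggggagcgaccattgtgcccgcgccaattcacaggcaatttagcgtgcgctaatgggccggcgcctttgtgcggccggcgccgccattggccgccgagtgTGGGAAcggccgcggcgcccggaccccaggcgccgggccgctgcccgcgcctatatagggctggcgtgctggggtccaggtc
In the windows of Dll1 (chr17:15376933-15377182, minus strand, the upstream of its 2 listed starts) and Dll3 (chr7:28301786-28302035, minus strand) the capitals mark the E box CAGCTG, a core bound by proneural factors.
Dll1: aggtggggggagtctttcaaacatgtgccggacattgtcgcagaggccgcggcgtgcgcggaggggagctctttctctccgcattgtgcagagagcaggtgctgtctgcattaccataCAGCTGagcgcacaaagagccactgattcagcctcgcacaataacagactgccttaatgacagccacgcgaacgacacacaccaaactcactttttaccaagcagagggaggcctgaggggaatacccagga
Dll3: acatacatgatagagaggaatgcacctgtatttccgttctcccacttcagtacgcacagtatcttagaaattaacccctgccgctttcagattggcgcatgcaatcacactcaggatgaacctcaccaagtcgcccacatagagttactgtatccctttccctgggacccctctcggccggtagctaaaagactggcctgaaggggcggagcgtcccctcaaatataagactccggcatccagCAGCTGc
Of the 10 genes, 8 had an entry in the RefSeq table, Dll1 and Hes6 with 2 starts each. The target genes Hes1 and Hey1 had no entry, so their upstream sequences were not searched. The RBPJ core, searched on both strands, was found in 1 of these 8, Hes5, at 226 to 221 and at 82 to 77 bases before the start, and 21.6% of all 32851 windows of this length and 24.1% of all 27025 genes held it. The E box CAGCTG was found in 4 of 8, Dll1, Dll3, Jag1 and Hes6, against 13.0% of all windows and 14.7% of all genes, and the window of the other Dll1 start (chr17:15375824-15376073) held none. The N box CACNAG or CTNGTG, a core bound by Hes repressors, was found in Notch1, Notch2, Notch3 and Hes6, against 36.7% of all windows and 40.1% of all genes. These are letter matches in a window, and binding was not measured.

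Reads counted on genes ranged from 8910724 to 16631614 per library. T0 replicate 3 stood apart from the other T0 libraries: its counts differed from those of replicates 1 and 2 by a chi-square of 101 and 105 per gene, whereas replicates 1 and 2 differed by 3.28 and pairs within T1, T2 and T3 by 5.34 to 34.1. All 10 genes had their lowest T0 level in it, from 0.379 times the mean of the other T0 libraries for Notch2 to 0.931 times for Hes6. It had the highest summed level of the 8 progenitor markers at T0 (9458 CPM, counts per 1e+06 reads on genes, against 7575 and 8197). Single markers were split: Nes, Fabp7 and Olig2 had their highest T0 level in it, and Sox2, Pax6, Vim and Slc1a3 did not. Sox2 was lowest in it, at 186 CPM where T0 reached 429 CPM. This library had the lowest T0 sum of the 6 astrocyte markers (1913 against 2789 and 2871), and the lowest of the 6 oligodendrocyte markers (6.71 against 41.7 and 46.3). Of all 12 libraries it also had the smallest share of uniquely aligned reads outside genes (13.3%), the largest share of alignments that were not unique (39.0%) and the highest FPKM sum (933121, against at most 727432 elsewhere). The part of these differences in the results below was not tested, and the comparisons of the 10 genes with T0 are given with and without this library, as are those of further genes named in the text where it changed a call or the value by over 1.5 times. The progenitor markers, Nes, Sox2, Pax6, Vim, Fabp7, Olig2 and Slc1a3, were present at all time points, with Prom1 at no more than 3 counts, and their sum was 7463 to 8003 CPM at T3. The 6 neuronal markers summed to 894 to 962 CPM at T0 and to 1701 to 2708 CPM in the other groups. Most of the T0 sum was Mtap2, at 881 to 917 CPM at T0 and 1313 to 1933 CPM at T3. Dcx was at 1.77 to 8.15 CPM at T0 and 272 to 547 CPM at T3. Tubb3 was at 10.7 to 33.4 and 89.5 to 176 CPM, and Gad1 at 1.20 to 4.04 and 24.0 to 48.3 CPM. Rbfox3 and Snap25 were at no more than 0.277 CPM at T0 and at 0.971 to 2.83 CPM at T3. The 6 oligodendrocyte markers summed to 6.71 to 46.3 CPM at T0 and 79.2 to 260 CPM later. Most of the oligodendrocyte sum was Pdgfra, at 3.67 to 30.0 CPM at T0 and 67.7 to 227 CPM at T3. Sox10 went the other way, from 0.706 to 3.36 CPM at T0 to 0.108 to 0.333 CPM at T3, and Mbp stayed within its T0 range. Markers of microglia summed to at most 0.386 CPM, of endothelium to at most 3.04 CPM, and of mural cells and fibroblasts to at most 3.67 CPM. In bulk RNA, fewer cells of a type and less RNA per cell cannot be told apart. The part of the shifts in the neuronal markers and in Pdgfra in the changes from T0 was not tested.

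At 2 days of medium D1 the ligand Dll1 rose 2.55-fold and the target Hes5 fell 3.35-fold, with a smaller fall of Hes6. At 2 days of medium B the same 3 genes had moved the same way, and Notch3 had fallen too. After 10 days of medium B the gene called was Dll3, 3.53-fold above T0. These calls used the quasi-likelihood test of edgeR over all genes at an adjusted p under 0.05. Of all genes tested, 15.1% were called higher and 16.8% lower at T1, 21.4% and 21.8% at T2, and 3.31% and 1.41% at T3. Among the 10 genes, 1 was higher and 2 lower at T1, 1 higher and 3 lower at T2, and 1 higher and 0 lower at T3. The median log2 fold change of the 10 was 0.27, 0.02 and -0.03 at T1, T2 and T3, and that of all genes -0.01, 0.00 and -0.01. Without T0 replicate 3, 7, 5 and 5 of the 10 were called at T1, T2 and T3, where 50.1%, 52.1% and 18.4% of all genes were called.

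**Figure D1:**
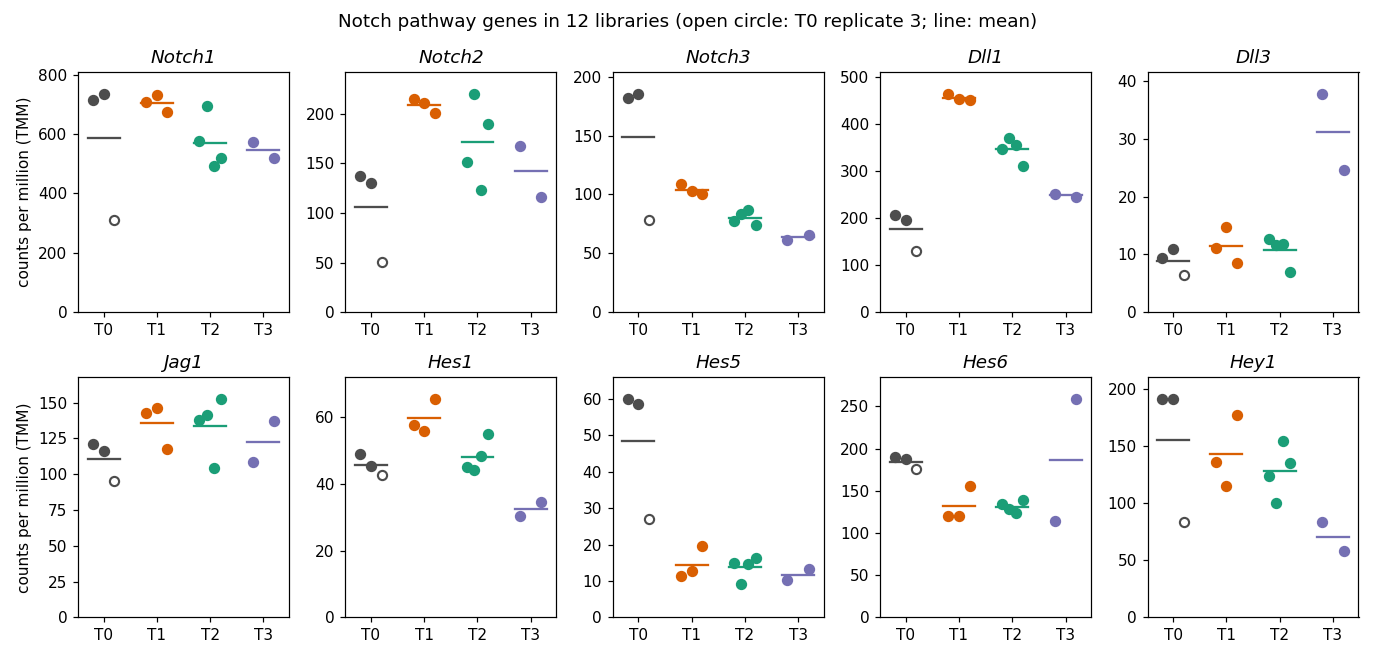
Level of each gene in CPM (vertical axis, normalised by TMM) in the libraries of each time point (horizontal axis); each circle is a library and each line a group mean. The open circle, T0 replicate 3, is the lowest T0 value in every panel, Hes5 stays at or below 19.5 CPM after T0 and Dll3 stands at 24.6 and 37.9 CPM at T3.

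Among the receptors, Notch1 (chromosome 2, 26313423 to 26372183 on mm9) was the most abundant. Its levels, in order of replicate number, were 715, 735 and 309 CPM at T0, 708, 730 and 674 at T1, 575, 695, 494 and 520 at T2, and 574 and 520 at T3. All later libraries lay within the T0 range, and 0 of 3 changes passed the test, with log2 fold changes of 0.25 ± 0.31 (SE), -0.04 ± 0.28 and -0.09 ± 0.39 at T1, T2 and T3. With T0 replicate 3 left out they were -0.06 ± 0.08, -0.34 ± 0.13 and -0.40 ± 0.12, none past the threshold (edgeR adjusted p = 0.615, 0.0503 and 0.0771).

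Notch2 (chromosome 3, 97817461 to 97954290) was at 137, 131 and 50.6 CPM at T0, 215, 211 and 201 at T1, 151, 220, 123 and 190 at T2, and 167 and 116 at T3. All T1 libraries lay above all T0 libraries, while T2 and T3 overlapped with T0. The log2 fold change at T1 was 0.97 ± 0.34 (SE; edgeR adjusted p = 0.0701), and 0.63 ± 0.08 without T0 replicate 3 (adjusted p = 0.000221). At T2 and T3 it was 0.69 ± 0.34 and 0.43 ± 0.45, and without that library 0.36 ± 0.19 and 0.10 ± 0.19, and none of these passed.

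Notch3 (chromosome 17, 32257765 to 32303825) was at 182, 186 and 78.0 CPM at T0, 109, 103 and 100 at T1, 77.2, 83.2, 87.0 and 74.3 at T2, and 61.7 and 66.0 at T3. The T3 libraries were below every library of the other groups, and T0 replicate 3 lay within the T2 range. Against T0 the log2 fold change was -0.53 ± 0.31 at T1 (edgeR adjusted p = 0.226), -0.88 ± 0.27 at T2 (0.0279) and -1.21 ± 0.40 at T3 (0.13). Leaving T0 replicate 3 out gave -0.83 ± 0.08, -1.19 ± 0.08 and -1.52 ± 0.11, all past the threshold, with adjusted p of 3.9e-05, 4.2e-06 and 0.00693. The call at T2 was lost when any other library of T0 or T2 was left out, with an adjusted p of 0.0576 to 0.0886. Between receptors the FPKM ratio of Notch1 to Notch3, which is per transcript length, went from 6.10 ± 0.66 (SD, n = 3) at T0 to 10.3 ± 2.31 (n = 3) at T1, 11.5 ± 4.52 (n = 4) at T2 and 13.2 ± 4.60 (n = 2) at T3.

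Among the ligands, Dll1 (chromosome 17, 15504318 to 15513836), a ligand that activates receptors on the next cell, was at 206, 196 and 129 CPM at T0, 464, 452 and 449 at T1, 345, 370, 356 and 311 at T2, and 251 and 244 at T3. The 4 groups did not overlap: T1 was highest, then T2, T3 and T0. Against T0 the log2 fold change was 1.35 ± 0.19 (SE; edgeR adjusted p = 0.00291) at T1 and 0.97 ± 0.17 (0.0027) at T2, and 0.50 ± 0.24 (0.249) at T3. On T0 replicates 1 and 2 alone the values were 1.17 ± 0.08 (8.7e-06), 0.78 ± 0.09 (9.86e-05) and 0.31 ± 0.11 (0.0971). Under every alternative tried Dll1 kept both calls, with values between 1.17 and 1.47 at T1 and between 0.78 and 1.09 at T2.

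Dll3 (chromosome 7, 29076673 to 29087257), a divergent ligand that does not activate receptors on neighbouring cells, was the least abundant of the 10 at T0. Its levels were 9.42, 10.9 and 6.50 CPM at T0, 11.2, 14.7 and 8.58 at T1, 12.7, 11.6, 11.8 and 6.94 at T2, and 37.9 and 24.6 at T3. Both T3 libraries were above all others, and the other groups overlapped. The log2 fold change at T3 was 1.82 ± 0.32 (SE; edgeR adjusted p = 0.0391) against T0, 1.64 ± 0.26 (0.0207) without T0 replicate 3, and 1.56 ± 0.26 (0.0437) against T2. At T1 and T2 against T0 it was 0.35 ± 0.28 and 0.27 ± 0.26, and 0.16 ± 0.22 and 0.07 ± 0.23 without T0 replicate 3, and none of these passed. The T3 call against T0 was lost without T0 replicate 1 (adjusted p = 0.119) or T0 replicate 2 (0.113), and the call against T2 without any 1 of the T2 libraries (0.0794 to 0.107). Where 1 of the 2 T3 libraries was left out, the other was assumed to vary like the T0 libraries, and the log2 fold change was 1.48 (0.286) without replicate 1 and 2.09 (0.086) without replicate 4.

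Jag1 (chromosome 2, 136907192 to 136942380), the Jagged family ligand of the set, was at 121, 116 and 94.9 CPM at T0, 143, 146 and 118 at T1, 138, 141, 104 and 153 at T2, and 108 and 137 at T3. All groups overlapped, and its log2 fold changes from T0 were 0.28 ± 0.14 (SE), 0.28 ± 0.15 and 0.16 ± 0.19, and without T0 replicate 3 they were 0.18 ± 0.10, 0.18 ± 0.14 and 0.06 ± 0.14, none past the threshold. The FPKM ratio of Dll1 to Jag1 was 3.30 ± 0.62 (SD, n = 3) at T0, and then 6.94 ± 0.60 (T1, n = 3), 5.24 ± 1.27 (T2, n = 4) and 4.48 ± 0.41 (T3, n = 2). The FPKM ratio of Dll1 to Dll3 started at 15.0 ± 0.95 (T0), reached 30.3 ± 5.46 (T1) and 24.4 ± 5.93 (T2), and ended at 6.89 ± 2.51 (T3), the lowest mean of the 4.

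Among the target genes, Hes5 (chromosome 4, 154335032 to 154336480), a Notch effector repressor whose upstream window held both RBPJ cores, was at 59.9, 58.5 and 27.1 CPM at T0, 11.4, 12.7 and 19.5 at T1, 15.0, 9.20, 14.5 and 16.2 at T2, and 10.3 and 13.2 at T3. Every later library was below the lowest T0 library, and T1, T2 and T3 overlapped. Against T0 its log2 fold change was -1.75 ± 0.35 (SE; edgeR adjusted p = 0.0115) at T1, -1.81 ± 0.30 (0.00193) at T2 and -2.04 ± 0.41 (0.0527) at T3. On the other T0 libraries alone the values were -2.02 ± 0.19 (4.5e-05), -2.10 ± 0.17 (8.5e-06) and -2.33 ± 0.16 (0.00693). The call at T1 was lost without T1 replicate 1 (adjusted p = 0.057) and without T1 replicate 2 (0.0613).

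Hes1 (chromosome 16, 30064470 to 30067882), the other Hes repressor of this kind, was highest at T1 and lowest at T3. It was at 49.0, 45.5 and 42.7 CPM at T0, 57.8, 55.9 and 65.5 at T1, 45.0, 44.1, 48.5 and 55.1 at T2, and 30.3 and 34.5 at T3. All T1 libraries were above and both T3 libraries below the T0 range. The log2 fold changes were 0.38 ± 0.12 (SE; edgeR adjusted p = 0.0539), 0.08 ± 0.12 (0.612) and -0.48 ± 0.17 (0.143). Without T0 replicate 3 the change at T1 was 0.33 ± 0.10 (0.0252) and that at T3 -0.53 ± 0.13 (0.0496), both past the threshold, and that at T2 0.03 ± 0.11 (0.815). The FPKM ratio of Hes5 to Hes1 was 1.56 ± 0.55 (SD, n = 3) at T0, 0.303 ± 0.070 (n = 3) at T1, 0.382 ± 0.081 (n = 4) at T2 and 0.443 ± 0.015 (n = 2) at T3. In T0 replicate 3 it was 0.926, above the highest later library at 0.460.

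Hes6 (chromosome 1, 93308060 to 93310615) encodes a family member that counteracts Hes1 and favours differentiation. It was at 190, 188 and 176 CPM at T0, 121, 121 and 156 at T1, 135, 128, 124 and 139 at T2, and 115 and 259 at T3. T1 and T2 were below the T0 range, and the T3 libraries lay on either side of it. The log2 fold change was -0.49 ± 0.14 (SE; edgeR adjusted p = 0.033) at T1, -0.49 ± 0.09 (0.00374) at T2 and 0.03 ± 0.34 (0.97) at T3. With that T0 library left out, the first 2 were -0.52 ± 0.12 (0.00612) and -0.52 ± 0.08 (0.000407), and that at T3 -0.01 ± 0.37 (0.986). Leaving out T0 replicate 1 or 2 or T1 replicate 1 or 2 ended the T1 call, with adjusted p of 0.0809 to 0.141.

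Hey1 (chromosome 3, 8663362 to 8667039), a repressor of the Hey family, was at 191, 191 and 83.2 CPM at T0, 136, 116 and 178 at T1, 124, 101, 154 and 136 at T2, and 83.7 and 57.7 at T3. T0 replicate 3 lay between the 2 T3 libraries and below all of T1 and T2. The log2 fold changes were -0.13 ± 0.33 (SE), -0.27 ± 0.28 and -1.12 ± 0.42, none past the threshold in edgeR (adjusted p = 0.784, 0.463 and 0.161). Set against T0 replicates 1 and 2 alone they were -0.43 ± 0.16 (0.0488), -0.57 ± 0.14 (0.00692) and -1.42 ± 0.20 (0.0168), and all 3 passed.

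**Figure D2:**
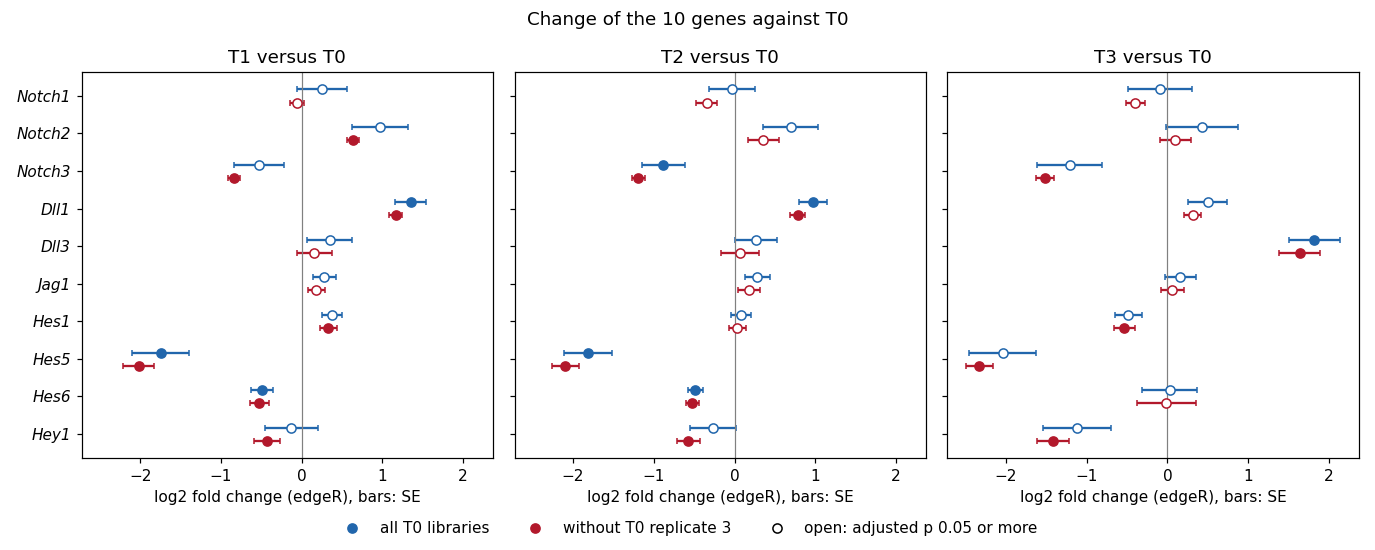
Log2 fold change against T0 (horizontal axis, edgeR, bars are the standard error) of the 10 genes (vertical axis) at each later time point, with all T0 libraries in blue and without T0 replicate 3 in red; filled points passed an adjusted p of 0.05. Dll1, Hes5 and Hes6 are filled in both colours at T1 and T2, and Notch3, Hes1, Hes5 and Hey1 at T3 are filled in red only.

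From T1 to T2, when medium D1 gave way to medium B, 0 of the 10 genes were called by edgeR, where 0.573% of all genes were called higher and 0.0565% lower. At an unadjusted p under 0.05 there were 4, Notch1, Notch3, Dll1 and Hes1, all lower at T2, and DESeq2 called 2, Dll1 and Notch3. For neither count is the share of all genes given here, so they cannot be read as particular to the 10. No label pairs these samples, and their replicate numbers were taken as pairing from correlations in these same data. With the replicate as a block 2 genes were called, Dll1, at -0.35 ± 0.06 (log2, SE, edgeR adjusted p = 0.0401) and Hes1 with -0.38 ± 0.07 (0.043), beside 1.99% of all genes. Both calls rest on that choice. Without the block the values were -0.39 ± 0.08 (0.0705) for Dll1 and -0.30 ± 0.10 (0.242) for Hes1. From T2 to T3, 1 gene was called, Dll3, higher at T3 as given above, where 0.5% of all genes were called higher and 0.691% lower. Notch3, Dll1, Hes1 and Hey1 had both T3 libraries below all T2 libraries, with log2 fold changes of -0.33 ± 0.11, -0.47 ± 0.11, -0.57 ± 0.14 and -0.85 ± 0.20 and adjusted p of 0.166, 0.0749, 0.0762 and 0.0749. DESeq2 called 4 of the 10 in this step, Dll1, Dll3, Hes1 and Hey1. The shares of all genes called by DESeq2, or with groups apart in this way, are not given here. The shares above are those of edgeR, so these counts cannot be read as particular to the 10.

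Levels per transcript length put Hes6 first at T0, at 115 ± 3.27 FPKM (SD, n = 3), followed by Notch1 (77.7 ± 22.2), Dll1 (57.4 ± 13.6), Hey1 (53.6 ± 19.1), Hes5 (49.6 ± 15.1), Hes1 (32.4 ± 3.03), Jag1 (17.3 ± 1.47), Notch3 (13.1 ± 4.76), Notch2 (7.12 ± 2.86) and Dll3 (3.86 ± 1.08). From Notch1 down to Hes1 each neighbour overlapped with the next, as did Notch3 with Notch2 and Notch2 with Dll3. At T1 Dll1 was first, at 145 ± 6.28 FPKM (n = 3), and above every Notch1 and Hes6 library, and at T2 its mean was 102 ± 11.7 (n = 4), next to Notch1 at 75.5 ± 31.0 with overlap. At T3 (n = 2) the order was Hes6 (99.8 ± 41.0), Dll1 (72.8 ± 7.17), Notch1 (65.2 ± 25.4), Hey1 (21.7 ± 7.71), Hes1 (17.8 ± 0.65), Jag1 (16.3 ± 0.12), Dll3 (11.5 ± 5.24), Notch2 (8.55 ± 2.87), Hes5 (7.87 ± 0.55) and Notch3 (4.90 ± 0.21). Here Hes6, Dll1 and Notch1 overlapped in turn, as did Hey1 with Hes1, Dll3 with Notch2 and Notch2 with Hes5. Hes5 thus passed from the fifth to the ninth place and Dll3 from the tenth to the seventh. On the annotation, antisense transcripts share exon bases with Notch1 (1068 and 414 bases, 2 transcripts), Notch3 (488), Dll1 (867) and Hes5 (433), and the strand setting of the counting is not given in the sources used here, so reads of these pairs cannot be told apart. For Notch1 the FPKM divided by the CPM varied 1.94-fold between libraries, and for Hes5 1.90-fold, the widest of the 10. For Hes5 this ratio was 0.971 to 1.19 at T0 and 0.627 to 0.725 at T3, and its mean fell 6.30-fold from T0 to T3 in FPKM and 4.13-fold in CPM, so the FPKM levels and places of both genes are less certain.

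**Figure D3:**
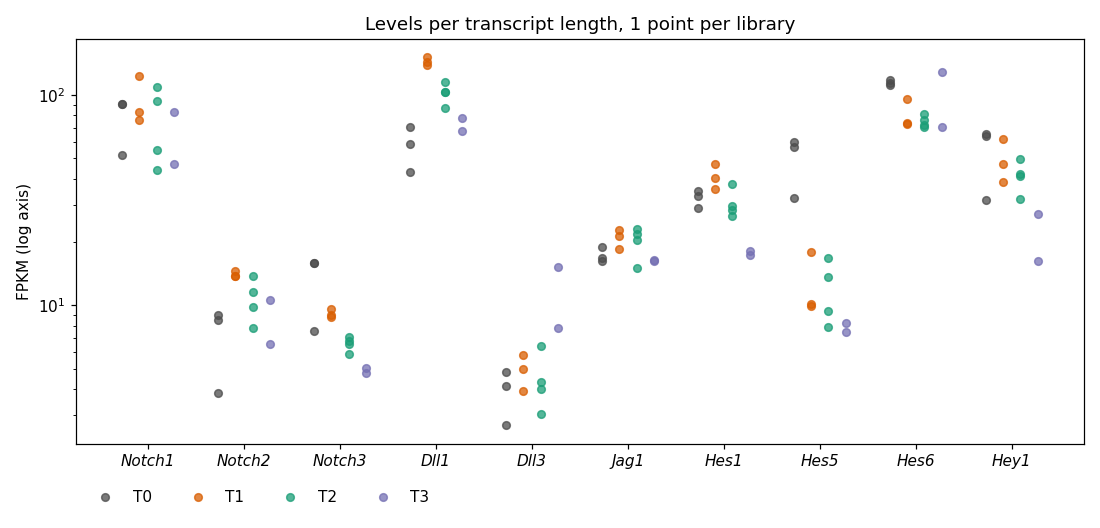
FPKM of each gene (vertical axis, logarithmic) in every library, 1 point per library and coloured by time point; genes are on the horizontal axis. Dll1 is the most abundant of the 10 at T1, with 139 to 151 FPKM, and Hes5 drops from 32.3 to 59.7 FPKM at T0 to 7.48 to 8.26 at T3.

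The rest of the pathway was followed through 65 further genes, of which 57, 58 and 57 were tested at T1, T2 and T3 against T0. At T1, 12 were called higher and 5 lower, at T2 13 and 6, and at T3 3 and 0, to be read beside the shares of all genes above. Their median log2 fold change was 0.15, 0.04 and 0.01. Without T0 replicate 3 the counts were 18 and 7 at T1, 16 and 7 at T2 and 9 and 3 at T3. In that setting 50.1%, 52.1% and 18.4% of all genes were called in either direction at T1, T2 and T3.

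Of the further ligands, Dll4, an activating Delta ligand, changed most. Its levels were 3.81, 2.35 and 1.84 CPM at T0, 66.4, 57.8 and 71.5 at T1, 78.1, 78.3, 59.1 and 92.4 at T2, and 42.4 and 44.5 at T3. All later libraries were far above T0, with log2 fold changes of 4.60 ± 0.28 (SE; edgeR adjusted p = 0.000398), 4.86 ± 0.28 (4.7e-05) and 4.04 ± 0.34 (0.0136). Dner, a ligand without the usual Delta domain, was at 90.4 to 137 CPM at T0 and 258 to 332 in later libraries, higher by 1.41 ± 0.18, 1.46 ± 0.16 and 1.52 ± 0.21 on the log2 scale and called at all 3 time points. Notch4 was not called, and Jag2 passed at T2 only with T0 replicate 3 left out, with 1.14 ± 0.35 (adjusted p = 0.0203) against 0.65 ± 0.40 (0.222) with it.

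The enzymes that modify or cut the receptors changed in both directions. Lfng, a glycosyltransferase that changes how receptors respond to ligands, fell by 0.65 ± 0.15 (SE, log2) at T1 and by 0.98 ± 0.10 at T2, and its relative Rfng rose by 0.41 ± 0.10 and 0.54 ± 0.11. The gamma-secretase genes Psen2 (1.94 ± 0.31 and 2.13 ± 0.30) and Aph1b (1.19 ± 0.22 and 1.31 ± 0.19) rose. Adam17, which can cut the receptor at the cell surface, fell by 0.74 ± 0.11 and 0.82 ± 0.09, and Adam10, which cuts it once ligand is bound, fell by 0.50 ± 0.11 at T2. Its value at T1 was -0.36 ± 0.13 (adjusted p = 0.068), and -0.27 ± 0.09 (0.0306) without T0 replicate 3. Of 4 genes for ligand endocytosis 1 fell, the ubiquitin ligase gene Neurl1b, by 2.44 ± 0.22 and 2.11 ± 0.24, from 27.8 to 39.8 CPM at T0 to 5.58 to 10.5 CPM at T1 and T2. Among all genes, 16.8% were called lower at T1 and 21.8% at T2. At T3 none of these named genes was called, while without T0 replicate 3 Lfng (-0.93 ± 0.17), Psen2 (1.54 ± 0.24), Aph1b (0.82 ± 0.12) and Adam17 (-0.57 ± 0.11) passed.

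Of 20 genes of the nuclear complex 1 rose and 2 fell at T1 and again at T2. Among all genes, 15.1% were called higher and 16.8% lower at T1, and 21.4% and 21.8% at T2. Rbpj, the DNA-binding partner of the receptors, rose by 0.66 ± 0.12 (SE, log2) and 0.66 ± 0.11, from 28.2 to 30.4 CPM at T0 to 41.9 to 49.3 at T1 and T2. The acetyltransferase gene Kat2a fell by 0.71 ± 0.20 and 0.60 ± 0.17, and the corepressor gene Tle2 by 1.44 ± 0.26 and 1.24 ± 0.23. Of the 9 negative regulators tested, 3 rose at T1 and 4 at T2, and 0 fell, where 15.1% and 21.4% of all genes were called higher. Those that rose were Nrarp, which destabilises the receptor complex (0.57 ± 0.13 and 0.64 ± 0.18), the Deltex genes Dtx3 (0.65 ± 0.18 and 0.76 ± 0.16) and Dtx4 (1.37 ± 0.11 and 1.03 ± 0.13), and at T2 the Numb homologue Numbl (0.74 ± 0.22). The rest of the 9 were not called with all T0 libraries. Dtx4 was also called at T3, with 0.83 ± 0.14 (edgeR adjusted p = 0.0356). With T0 replicate 3 left out, Kat2a was at -0.44 ± 0.07 and -0.34 ± 0.08 at T1 and T2, and Numbl at 0.41 ± 0.10 and 0.48 ± 0.09, all past the threshold. At T3 Rbpj (0.63 ± 0.12), Tle2 (-1.05 ± 0.20) and Numbl (0.49 ± 0.12) then passed as well.

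Among further genes listed as targets, Hes3, another Hes repressor, was at 4.56, 4.08 and 0.71 CPM at T0, 9.87, 10.4 and 14.1 at T1, 9.08, 9.29, 12.7 and 10.9 at T2, and 4.33 and 2.59 at T3. It was thus raised at T1 and T2, with log2 fold changes of 1.87 ± 0.57 (SE; edgeR adjusted p = 0.0436) and 1.76 ± 0.49 (0.021), and returned to the T0 range at T3. It was the 1 further gene called between T2 and T3, and 0 of 58 were called between T1 and T2. Among all genes, 0.5% were called higher and 0.691% lower from T2 to T3, and 0.573% and 0.0565% from T1 to T2. Hey2 was at 20.7, 20.3 and 1.41 CPM at T0, with T0 replicate 3 far below the other T0 libraries, and was not called with or without that library. Of the proneural genes, Neurog2 had 6, 4 and 0 counts at T0 against 126 to 268 at T1 and T2 and 87 and 28 at T3. Its log2 fold changes were 5.74 ± 0.68 (0.00157), 6.15 ± 0.57 (0.000134) and 4.39 ± 0.90 (0.0534, not past the threshold), and rest on 10 counts at T0. At T3 it passed without T0 replicate 3, with 3.83 ± 0.62 (0.0224). Dlk1, Dtx3l, Hes2, Heyl, Neurog1, Neurog3 and Atoh1 had at most 3 counts in any library.

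**Figure D4:**
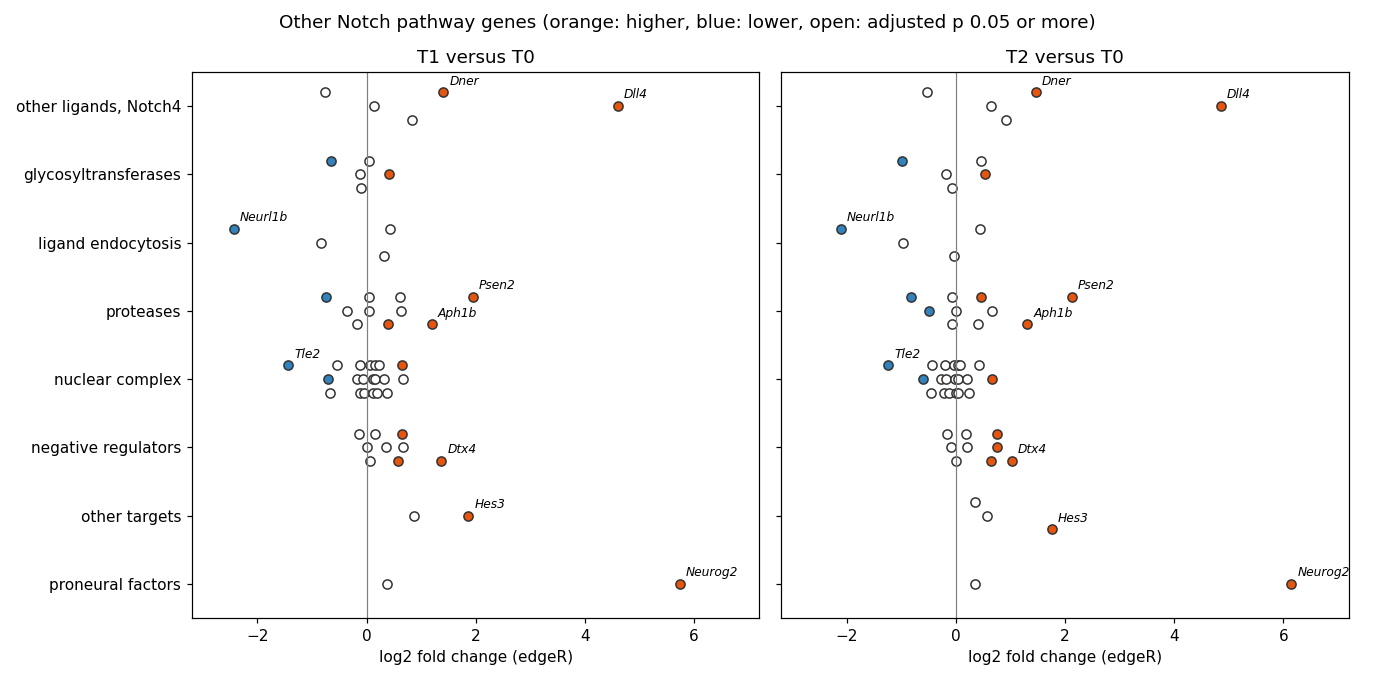
Log2 fold change (horizontal axis, edgeR) of the further pathway genes at T1 and T2 against T0, 1 circle per gene, in rows by role; orange circles were called higher, blue lower and open ones did not pass, and called genes that changed by more than 1 are named. Dll4 and Neurog2 lie farthest to the right, at 4.60 and 5.74 at T1, and Neurl1b farthest to the left, at -2.44.

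By mean FPKM over the 12 libraries, the most abundant further gene was Dner (48.6) among ligands and receptors, Lfng (70.4) among glycosyltransferases, Mib1 (56.6) for ligand endocytosis, Adam10 (37.9) among proteases, Ncor1 (165) in the nuclear complex, Dtx3 (62.6) among negative regulators and Hey2 (5.27) among further targets. Of all 12201 genes with a mean of at least 1 CPM, those with the pattern most like each of the 10, by Pearson correlation of log2(CPM + 0.5) over the 12 libraries, were Zfyve26 for Notch1 (r = 0.958), Ptch1 for Notch2 (0.981), Cdk19 for Notch3 (0.974), Meis2 for Dll1 (0.985), Zmat3 for Dll3 (0.927), 9430020K01Rik for Jag1 (0.888), Rnd3 for Hes1 (0.949), Ucp2 for Hes5 (0.977), Nfkbiz for Hes6 (0.962) and Lipe for Hey1 (0.958). These are descriptions over libraries that share time points and include T0 replicate 3. The next 2 genes were 1810074P20Rik and Zfp192 for Notch1, Kif1b and Ralgps1 for Notch2, Nfib and S100a4 for Notch3, Rgs12 and Bcan for Dll1, Odf3l1 and Adamts1 for Dll3, Sync and Zbtb3 for Jag1, Dsc1 and Myo1e for Hes1, Retsat and Slc25a18 for Hes5, Jup and Emilin1 for Hes6, and Eci2 and Ccdc74a for Hey1. Within the 10, the highest correlations were between Notch2 and Dll1 (r = 0.847), Notch1 and Notch2 (0.818), and Notch3 and Hes5 (0.794), again over 12 libraries and as a description.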

How the data were processed

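The authors prepared TruSeq v2 libraries from polyA RNA and mapped their reads to mm9. The tools named in the submitters' processing notes are TopHat2 2.0.6, Bowtie 0.12.7.0, HTSeq 0.6.0 and DESeq2 1.0.0. They deposited raw counts per gene and library, and a table of FPKM values with gene positions, and 0 of its columns belonged to other samples. The counting strand and the tool behind the FPKM are not given in the sources used here. The 5 entries that name no gene entered neither library sizes nor tests. They held, of uniquely aligned reads, 13.3% to 24.1% outside genes and 0.680% to 0.903% ambiguous ones, and 26.0% to 39.0% of all alignments had several places, so reads shared between close copies were not counted.

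Groups were taken from the labels. Each pair of time points was fitted alone in edgeR 4.0.16 (R 4.3.3) with TMM normalisation, filterByExpr and the quasi-likelihood test, two-sided, called at an adjusted p (Benjamini-Hochberg, all genes tested) under 0.05. CPM used TMM factors over all libraries. FPKM, which is per transcript length, was used to compare genes with each other. DESeq2 1.42.0, limma 3.58.1 on log2(FPKM + 1), other filters and left-out libraries were alternatives. The series calls the libraries biological replicates without naming cultures, and p-values measure only the spread between them.

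Same-numbered libraries deviated together from T1 to T2 (correlations 0.241, 0.396 and 0.189 for replicates 1, 2 and 3). There the number was taken as pairing, though no label states one. For T1 and T2 against T0 the correlations were -0.155 to 0.135, and from T2 to T3 -0.033 and 0.272. The 1 number shared by T3 and T0 gave 0.431.

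The 10 genes, the 65 further pathway genes and the marker lists were chosen with earlier results of these data known. Named were all 10, the further genes called against T0, those at no more than 3 counts, the most abundant of each role, and the 3 genes most correlated with each of the 10 (the first is given with its value). Notch4 and Jag2 were added after their values were seen, and results of some further genes are not reported here. The sequences are RefSeq's, on GRCm38.p6, and positions are on mm9, with gene starts and ends from GENCODE vM1.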

Additional observations from a re-analysis of the deposited data

Results flagged for a closer look

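Within T2, the group of 4 libraries, 29 genes named were tested for a library far from the others (Dixon's ratio at the 95% level, where chance flags about 1 in 20), and 3 stood out. Dner was at 274 CPM in T2 replicate 1 and at 308 to 313 CPM in the others. Rfng was at 82.7 CPM in T2 replicate 3 and at 66.3 to 68.7 CPM in the others. Aph1b was at 69.4 CPM in T2 replicate 2 and at 74.0 to 74.8 CPM in the others. The libraries differ from gene to gene, and none of the 10 genes stood out.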

How the results depend on the processing

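Of 780 log2 fold changes of the 10 genes under an alternative, 655 kept their direction and their side of the threshold, 37 lost and 44 gained a call, and 44 changed sign, all on values that had not passed. The cause was not tested. The counts that follow show how calls move with the setting and are no result about these genes. The share of all genes called moves too, and was 50.1%, 52.1% and 18.4% at T1, T2 and T3 without T0 replicate 3. Beside that and the block from T1 to T2, no such share is given here. Members called at T1 numbered 5 with DESeq2, 8 with libraries numbered 1 and 2 only, and 1 to 7 when 1 library was left out. At T2 they were 7 with libraries numbered 1 and 2 only and 3 to 5 with 1 left out. At T3 they were 3 with DESeq2, 2 without a filter, 0 with at least 10 counts in every library, 6 in a fit of all libraries, 0 by limma on FPKM without a filter, and 0 to 5 with 1 left out. From T1 to T2 they were 2 with DESeq2, 1 without a filter and 2 with the replicate block. From T2 to T3 they were 4 with DESeq2, 4 without a filter, 0 in a fit of all libraries, 0 with the replicate block, 0 by limma on FPKM, and 0 to 3 with 1 left out. Of the further genes, those called at T1 were 32 with libraries numbered 1 and 2 only, 9 by limma without a filter, and 10 to 25 with 1 left out; at T3 11 with DESeq2, 7 without a filter, 16 in a fit of all libraries, 1 by limma, 0 by limma without a filter, and 0 to 12 with 1 left out; and from T2 to T3 4 with DESeq2, 4 without a filter, 0 in a fit of all libraries, 0 with the replicate block, 0 by limma, and 0 to 7 with 1 left out.

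The log2 fold changes that changed sign, with their value first, were these. Notch1 from T0 to T1 (0.25) was -0.055 to 0.45 with 1 left out, -0.024 with numbers 1 and 2 only. Hey1 from T0 to T1 (-0.13) was -0.43 to 0.049 with 1 left out. Notch1 from T0 to T2 (-0.035) was -0.34 to 0.16 with 1 left out, 0.10 with the replicate block. Hes1 from T0 to T2 (0.08) was -0.0031 to 0.13 with 1 left out, -0.090 with numbers 1 and 2 only, -0.089 by limma, -0.092 with a pseudocount of 0.1, -0.089 unfiltered. Notch1 from T0 to T3 (-0.091) was -0.40 to 0.11 with 1 left out. Jag1 from T0 to T3 (0.16) was -0.025 to 0.33 with 1 left out, -0.083 by limma, -0.087 with a pseudocount of 0.1, -0.083 unfiltered. Hes6 from T0 to T3 (0.027) was -0.68 to 0.50 with 1 left out, -0.26 by limma, -0.27 with a pseudocount of 0.1, -0.26 unfiltered. Dll3 from T1 to T2 (-0.10) was -0.28 to 0.12 with 1 left out, 0.10 with the replicate block. Jag1 from T1 to T2 (-0.012) was -0.10 to 0.089 with 1 left out. Hes5 from T1 to T2 (-0.08) was -0.22 to 0.20 with 1 left out, 0.0094 with numbers 1 and 2 only. Hes6 from T1 to T2 (-0.0072) was -0.074 to 0.13 with 1 left out, 0.13 with numbers 1 and 2 only. Hey1 from T1 to T2 (-0.15) was -0.29 to 0.041 with 1 left out. Notch1 from T2 to T3 (-0.056) was -0.13 to 0.053 with 1 left out, 0.0046 with the replicate block. Jag1 from T2 to T3 (-0.12) was -0.31 to 0.040 with 1 left out. Hes6 from T2 to T3 (0.51) was -0.20 to 0.98 with 1 left out.

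The replicate block, beside T1 to T2, called 2 of the 10 at T1 and 3 at T2, where Hes6 at T1 (adjusted p = 0.0601) and Notch3 at T2 (0.14) lost their calls, and Dll3 from T2 to T3 (0.0855). In these comparisons, as from T1 to T2, the samples share only a number, and at T3 against T0 no block could be fitted because the groups share 1 number. Depth limits Dll3, with 92 to 455 counts per library, and Hes5, with 99 to 845.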
